A study of Homo sapiens with 6 samples.

Results

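The E2F transcription factors and RB1 and RBL1, which encode pocket proteins of the RB family, were followed by RNA-SEQ in NALM6 cells treated with THZ1. The genes were taken from a list of names, E2F1 to E2F8, RB1 and RBL1, not by a threshold on measured values. That list was chosen with earlier results of these data known. All 10 were found by symbol in the deposited tables, among 57905 genes in the count table, and all 10 were among the 16622 genes with enough counts to be tested. NALM6 is a human cell line from B-cell precursor acute lymphoblastic leukemia. THZ1 is a covalent inhibitor of CDK7, a kinase that activates other cyclin-dependent kinases and phosphorylates RNA polymerase II. The 6 libraries were from NALM6 cells for which the labels name no genetic change: 3 libraries of cells that received the solvent DMSO and 3 of cells that received 500 nM THZ1, all collected after 24 h. The comparison asks how THZ1 treatment changed transcript levels in these leukemia cells.

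E2F factors bind promoters of genes needed for DNA synthesis, mostly as dimers with a DP partner. Pocket proteins hold E2F factors in check until cyclin D with CDK4 or CDK6, and then cyclin E with CDK2, phosphorylate them and free the E2F, which lets cells pass from G1 into S phase. E2F1, E2F2 and E2F3 are mainly activators, E2F4 and E2F5 act mainly as repressors with pocket proteins, E2F6 represses through a Polycomb-type complex, and E2F7 and E2F8 are atypical repressors that bind DNA without a DP partner. E2F1 can also switch on apoptosis genes. Several of these genes are themselves E2F targets, so the network feeds back on its own members.

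The DMSO-treated libraries held 11015480 to 11164840 gene counts, against 7876402 to 8314306 after THZ1, so that 3 counts, taken as the floor of detection, equalled 0.246 to 0.253 and 0.394 to 0.415 CPM (counts scaled to a common library size). The most abundant gene took 1.09 to 1.11% of the counts after DMSO and 3.47 to 3.66% after THZ1. All 13 B-cell precursor markers found in the count table, such as PAX5, were above the floor in every library, with a summed level of 4222 to 4351 CPM after DMSO and 2209.8 to 2279 CPM after THZ1. The summed level of 6 T-cell markers was 38.0 to 41.7 and 19.7 to 20.9 CPM, of which LCK was the only gene above the floor in every library, and CD8A was at 0. The sums of the other lists were 3.88 to 4.63 and 18.9 to 20.5 CPM for 6 myeloid markers, 0.246 to 0.422 and 5.61 to 6.64 CPM for 5 erythroid markers, and 3.11 to 4.46 and 15.8 to 16.2 CPM for 6 epithelial and fibroblast markers, of which COL1A1 alone was above the floor in every library and KRT18 was at 0. The part of these shifts in the results below was not tested. The labels do not say that the libraries came from separate cultures, so the p-values measure the spread between these libraries, which may be technical. In bulk RNA, fewer cells of a kind and less RNA per cell cannot be told apart, and the sources used here name no spike-in, so all levels are relative to the rest of the library.

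THZ1 treatment lowered 9 of the 10 genes and raised E2F2 at an adjusted p below 0.05 (quasi-likelihood test of edgeR, p-values adjusted by the Benjamini-Hochberg method across the 16622 genes), although E2F4 turned to a small positive value when the libraries were scaled by their upper quartile. Of all genes tested, 41.1% were called lower and 43.5% higher by the same rule, and log2 fold changes (THZ1 over DMSO) had a median of −0.59 in the 10 genes, against 0.03 in all genes tested. E2F1 and RB1 were the only members lower by at least 1.5 on the log2 scale, a size reached by 12.9% of the genes tested in the lower direction and by 24.6% in the higher direction. For each of the 10 genes the levels after DMSO and after THZ1 were free of overlap, as they were for 84.7% of all genes tested.

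**Figure D1:**
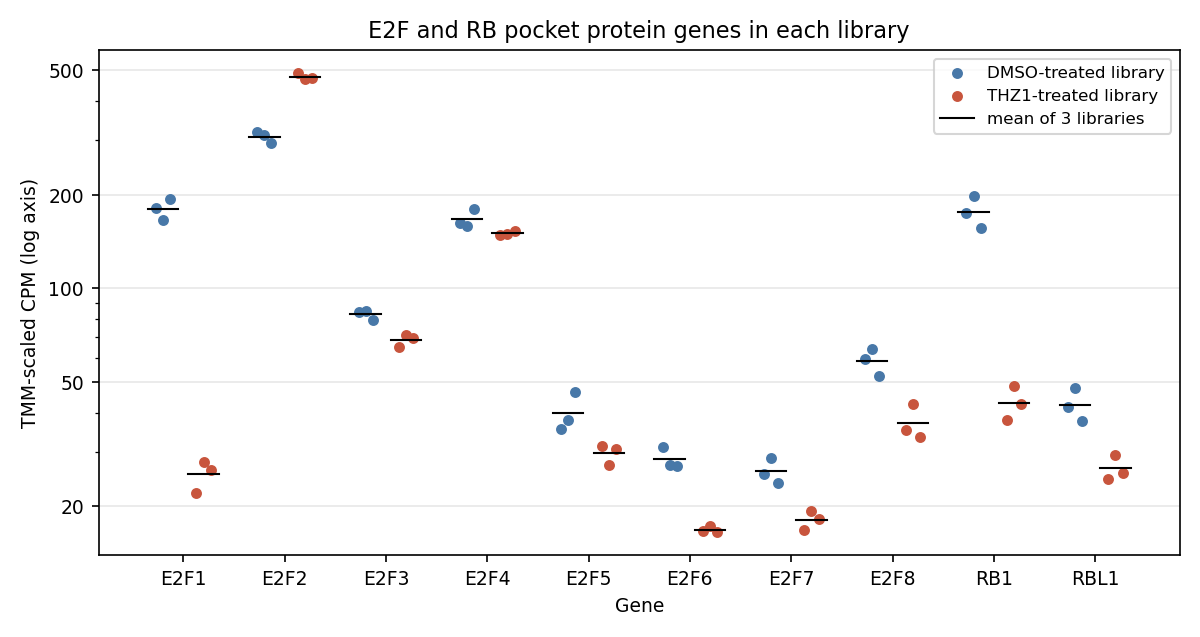
TMM-scaled CPM (vertical log axis) of each of the 10 genes (horizontal axis) in every library, with a dot for each library and a line at the mean of the 3 libraries of a treatment. E2F1 and RB1 drop furthest, from means of 180.1 and 176 CPM to 25.4 and 43.0 CPM, and E2F2 alone rises, from 306 to 477 CPM, whereas the small shift of E2F4 depends on the scaling and turns positive with upper quartile factors.

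Among the activators, E2F1 fell most. E2F1 (ENSG00000101412, chr20:32263283-32274191 on the minus strand, GRCh37, protein-coding) is the activator most closely tied to both S-phase entry and apoptosis. Its level, in CPM scaled by TMM factors, was 180.5, 165.9 and 194.0 in the DMSO-treated libraries and 22.1, 27.8 and 26.2 in the THZ1-treated libraries. Every THZ1-treated library was far below every DMSO-treated library. The means were 180.1 ± 14.1 and 25.4 ± 2.95 CPM (SD, n = 3 each), a log2 fold change of −2.83 (SE 0.09, edgeR adjusted p = 7.9e-23) or 7.10-fold lower. Only 2.11% of the genes tested had a lower log2 fold change. These values rest on 2024 to 2299 raw counts after DMSO and 168 to 201 after THZ1.

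E2F2 moved the other way. E2F2 (ENSG00000007968, chr1:23832930-23857725, minus strand) is an activator with targets much like those of E2F1 and is well known in lymphoid and erythroid cells. It stood at 316.4, 310.2 and 292.1 CPM after DMSO and at 489.7, 467.6 and 474.1 CPM after THZ1, with all THZ1-treated libraries above all DMSO-treated libraries. The mean rose from 306 ± 12.6 to 477 ± 11.4 CPM (SD, n = 3 each), a log2 fold change of 0.64 (SE 0.07, edgeR adjusted p = 1.9e-10). Its raw counts, 3827, 3785 and 3461 against 3724, 3378 and 3546, overlapped between treatments, so the rise is one relative to the smaller THZ1-treated libraries. With the libraries scaled by their totals alone, the log2 fold change of E2F2 was still 0.39. Among the genes tested, 63.6% had a lower log2 fold change than E2F2, which places it within the bulk of the genes.

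The third activator, E2F3 (ENSG00000112242, chr6:20402110-20493945, plus strand), changed little in size. Its levels were 83.8, 84.9 and 79.2 CPM after DMSO and 64.7, 70.9 and 69.1 CPM after THZ1. The treatments were separate by a small gap. The log2 fold change was −0.28 (SE 0.08, edgeR adjusted p = 0.00191), with means of 82.6 ± 3.06 and 68.2 ± 3.18 CPM (SD, n = 3 each). It was no longer called with upper quartile factors, where it was −0.08 (edgeR adjusted p = 0.325), or when a gene had to reach 10 counts in each library, where it was −0.14 (edgeR adjusted p = 0.088). The intronic transcript E2F3-IT1 lies within the gene on the same strand, and its exons do not touch those of E2F3 in the GENCODE annotation.

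The repressors that work with pocket proteins shifted by less than E2F1. E2F4 (ENSG00000205250, chr16:67226058-67232821, plus strand), a widely expressed factor bound to promoters in resting cells, was at 162.5, 158.0 and 180.3 CPM after DMSO and at 148.1, 149.6 and 152.9 CPM after THZ1. The gap between the treatments was smaller than the spread among the DMSO-treated libraries. The log2 fold change was −0.15 (SE 0.07, edgeR adjusted p = 0.0478), and it was the least stable of the 10, at 0.041 with upper quartile factors and −0.08 with RLE factors (edgeR adjusted p = 0.272). Leaving out any one library other than DMSO replicate 2 also ended the call, with values from −0.19 to −0.11.

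E2F5 (ENSG00000133740, chr8:86089389-86129387, plus strand), the close relative of E2F4, was at 35.4, 37.8 and 46.4 CPM after DMSO and at 31.2, 27.1 and 30.6 CPM after THZ1. DMSO replicate 3 was the highest of the libraries. The log2 fold change was −0.43 (SE 0.11, edgeR adjusted p = 0.000607). Exons of E2F5 overlap exons of RBIS on the opposite strand, and the strand setting of the counting is not given in the sources used here, so reads may be shared between them.

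E2F6 (ENSG00000169016, chr2:11584501-11606303, minus strand), which lacks the domains for activation and pocket protein binding, was at 30.9, 27.1 and 26.9 CPM after DMSO and at 16.7, 17.3 and 16.6 CPM after THZ1. The THZ1-treated libraries lay within 1 CPM of each other. The mean fell from 28.3 ± 2.25 to 16.9 ± 0.389 CPM (SD, n = 3 each), a log2 fold change of −0.75 (SE 0.12, edgeR adjusted p = 6.4e-07).

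The atypical repressors fell to a like extent. E2F7 (ENSG00000165891, chr12:77415028-77459349, minus strand) was at 25.4, 28.6 and 23.7 CPM after DMSO and at 16.8, 19.4 and 18.2 CPM after THZ1. E2F8 (ENSG00000129173, chr11:19245610-19263167, minus strand) was at 59.4, 64.0 and 52.4 CPM and at 35.2, 42.6 and 33.3 CPM in the same order. Both genes were lower in all THZ1-treated libraries. For both genes replicate 2 was the highest library of each treatment, as it was for E2F3, RB1 and RBL1. The log2 fold change was −0.52 (SE 0.12, edgeR adjusted p = 0.000208) for E2F7 and −0.66 (SE 0.10, edgeR adjusted p = 4.0e-07) for E2F8. Exons of E2F8 overlap those of CSRP3-AS1 on the opposite strand.

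The listed pocket protein genes, RB1 and RBL1, fell by unlike amounts. No other pocket protein gene was on the list. RB1 (ENSG00000139687, chr13:48877880-49173572, plus strand), the retinoblastoma tumor suppressor that binds the activators, was at 174.8, 198.3 and 156.2 CPM after DMSO and at 37.9, 48.6 and 42.5 CPM after THZ1. The highest THZ1-treated library was far under the lowest DMSO-treated library. The mean fell from 176 ± 21.1 to 43.0 ± 5.37 CPM (SD, n = 3 each), 4.11-fold, with a log2 fold change of −2.04 (SE 0.09, edgeR adjusted p = 4.4e-19), and 6.32% of the genes tested had a lower one. The gene spans 295693 bases in the GENCODE annotation, the longest of the 10. RefSeq gives it a shorter span, chr13:48303751-48481890 on GRCh38.p14. Genes such as LPAR6 lie within the GENCODE span on the opposite strand without exon overlap.

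RBL1 (ENSG00000080839, chr20:35624752-35724400, minus strand), the pocket protein that pairs with E2F4 and E2F5 and is itself an E2F target, was at 41.6, 47.8 and 37.6 CPM after DMSO and at 24.5, 29.3 and 25.7 CPM after THZ1. It was lower in each THZ1-treated library, by much less than RB1. The log2 fold change was −0.68 (SE 0.11, edgeR adjusted p = 1.0e-06), with means of 42.3 ± 5.15 and 26.5 ± 2.55 CPM (SD, n = 3 each). Its exons overlap those of the unnamed transcript ENSG00000269846 on the opposite strand.

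**Figure D2:**
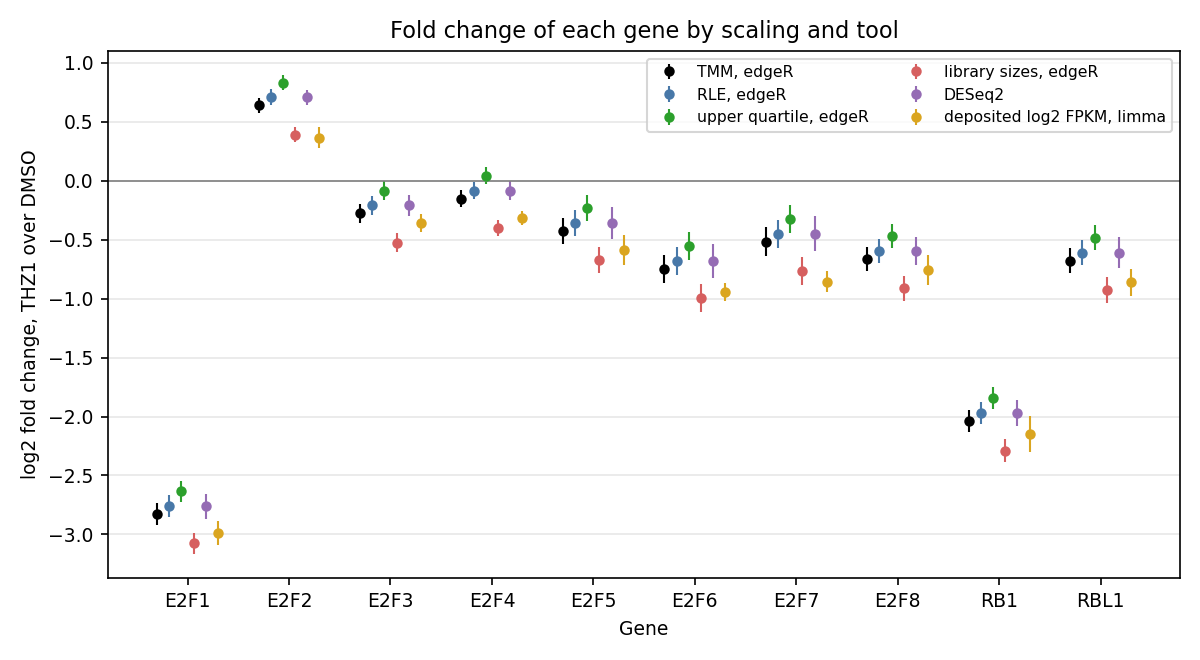
Log2 fold change (THZ1 over DMSO, vertical axis) of each gene (horizontal axis) under 6 combinations of scaling and tool, with error bars of 1 SE. The 10 genes move together when the scaling changes, E2F1 stays between −3.07 and −2.64 and RB1 between −2.29 and −1.85, and E2F4 crosses 0 with upper quartile factors, where it is 0.041.

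The choice of scaling moved all genes by a shared amount. Relative to TMM, the log2 fold changes of the genes tested shifted by a median of 0.19 under upper quartile factors and of −0.25 under library totals alone. Taken relative to that shift, E2F1 was at −2.83, E2F2 at 0.64 and RB1 at −2.04 under either scaling, as under TMM. This sameness is built in, because a scaling adds nearly the same amount to every gene, so it is no test of stability.

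Ratios of raw counts between 2 members in one library need no scaling, and 6 such ratios were chosen after the values were seen. The ratio of E2F1 to E2F2 was 0.570, 0.535 and 0.664 in the DMSO-treated libraries and 0.0451, 0.0595 and 0.0553 in the THZ1-treated libraries. The balance between these activators thus moved by −3.47 on the log2 scale, and the ratio of E2F1 to E2F3 moved by −2.55. The ratio of RB1 to RBL1 was 4.20, 4.15 and 4.16 after DMSO and 1.55, 1.66 and 1.66 after THZ1. The ratio of E2F1 to RB1 was 1.03, 0.837 and 1.24 after DMSO and 0.583, 0.573 and 0.616 after THZ1.

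The ratios within the repressor pairs moved far less. The ratio of E2F4 to E2F5 was 3.89 to 4.59 after DMSO and 4.75 to 5.52 after THZ1. The ratio of E2F7 to E2F8 was 0.428 to 0.452 after DMSO and 0.455 to 0.546 after THZ1, almost touching. Treatments did not overlap for any of the 6 ratios, with p = 0.1 for each (two-sided exact permutation test, also 0.1 after adjustment over the 6 ratios), the smallest p that 3 libraries against 3 allow. Lack of overlap was common here, since it held for the levels of 84.7% of all genes tested. The share over all pairs of genes was not computed.

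Levels of different genes were compared per transcript length, in FPKM (fragments scaled to transcript length and library size) taken from the log2 values the authors deposited. In that table the libraries of a treatment have nearly the same distribution of values, so the spread between them may be too small. After DMSO, E2F1 had the highest level of the 10, at 192 to 202 FPKM, followed by E2F2 at 144 to 172, E2F4 at 131 to 136 and RB1 at 66.2 to 90.3 FPKM, with no overlap between neighbours in this order. E2F3 at 41.8 to 46.1 FPKM overlapped E2F8 at 34.9 to 43.5 FPKM. The ranges of RBL1, E2F6 and E2F5 overlapped between 16.8 and 22.4 FPKM, and E2F7 was lowest at 11.4 to 13.0 FPKM.

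After THZ1, E2F2 led with 206 to 211 FPKM, ahead of E2F4 at 105 to 108 and E2F3 at 32.4 to 35.3 FPKM. E2F1 came only after these, at 21.0 to 26.5 FPKM, and overlapped E2F8 at 20.7 to 26.4 FPKM. RB1 stood at 14.6 to 19.0 FPKM. E2F5, RBL1 and E2F6 lay within 9.64 to 12.9 FPKM, with E2F7 again lowest at 5.63 to 6.69 FPKM.

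The makeup of the E2F transcripts changed accordingly. The summed FPKM of E2F1 to E2F8 was 635, 635 and 612 after DMSO and 419.5, 428 and 425 after THZ1. In CPM per kilobase of exon the sum fell by less in proportion. It was 218, 212 and 222 after DMSO and 172, 173 and 173 after THZ1. Relative to TMM, log2 fold changes on the deposited FPKM (pseudocount 1) were shifted by a median of −0.26, so the size of the fall depends on the scale. E2F1 made up 31.6 ± 1.40% of that sum after DMSO and 5.71 ± 0.622% after THZ1, while the share of E2F2 went from 25.8 ± 1.91% to 49.1 ± 1.18% (SD, n = 3 each). E2F4 held 21.2 ± 0.913% and 25.1 ± 0.369%. The shares of E2F3, E2F5, E2F6, E2F7 and E2F8 lay between 1.92 and 7.04% after DMSO and between 1.46 and 8.07% after THZ1. A share can rise when others fall, so these values describe the makeup and not the level of a gene.

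**Figure D3:**
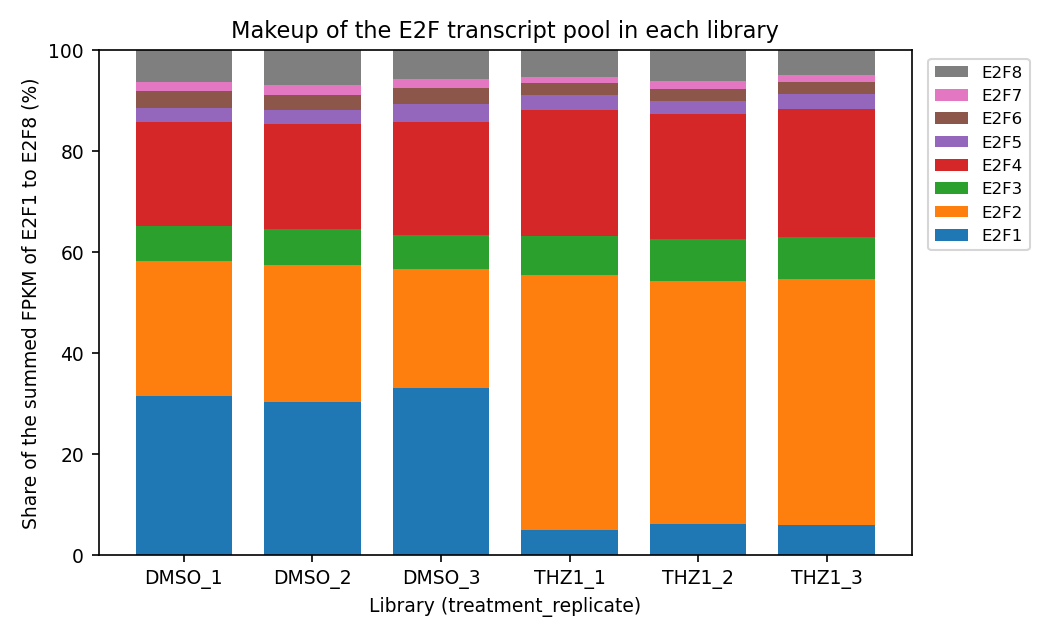
Share (vertical axis, in percent) of each E2F gene in the summed FPKM of E2F1 to E2F8, as a stacked bar for each library (horizontal axis, treatment and replicate). E2F1 takes 31.6% on average after DMSO and 5.71% after THZ1, and E2F2 takes 25.8% and 49.1%.

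The E2F recognition motif was looked for in promoter windows, since several of these genes are known E2F targets. RefSeq windows of 300 bases (250 before and 50 after a transcription start, GRCh38.p14) were at hand for 8 members, with 2 windows for E2F3, while E2F5 and E2F8 had none. The letters TTTCCCGC, TTTCGCGC, TTTGCCGC and TTTGGCGC were searched on both strands. These occurred in 4 of the 9 windows, those of E2F1, E2F2 and RBL1 and 1 of E2F3, and in 1164 of 35116 windows of all genes (3.31%). The windows of E2F4, E2F6, E2F7 and RB1 held none, which says only that these letters are not in these windows. Without their leading T, the letters occurred in 6 of the 9 windows, now also those of E2F6 and E2F7. They occurred in 4553 of the 35116 windows of all genes (13.0%). The window of RB1 lies at a start 172699 bases into the RefSeq gene, close to its end. The 100 bases just before the start are shown for the windows with a match, in 5′ to 3′ direction along the gene and with the matches in capitals.
E2F1, chr20:33686386-33686485, minus strand: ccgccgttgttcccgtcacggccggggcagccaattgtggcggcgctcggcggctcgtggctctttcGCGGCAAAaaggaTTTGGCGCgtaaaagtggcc
E2F2, chr1:23531234-23531333, minus strand: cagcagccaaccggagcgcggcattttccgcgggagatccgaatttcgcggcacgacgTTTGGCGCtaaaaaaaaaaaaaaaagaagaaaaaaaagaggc
E2F3, chr6:20401779-20401878, plus strand: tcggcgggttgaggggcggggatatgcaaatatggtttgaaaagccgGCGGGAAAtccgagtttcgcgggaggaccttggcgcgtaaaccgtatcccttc
RBL1, chr20:37095998-37096097, minus strand: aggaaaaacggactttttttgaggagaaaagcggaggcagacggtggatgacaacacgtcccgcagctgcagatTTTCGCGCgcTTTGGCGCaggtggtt

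E2F1 and RBL1 each held a pair of matches within 40 bases of the start, E2F2 held 1 at positions −42 to −35 and E2F3 held 1, on its reverse strand, at −53 to −46. The letters TTTGGCGC stood in front of E2F1, E2F2 and RBL1. Whether the matches bear on the direction of change was not tested. A match is a description of letters and not a measured binding site.

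The genes around the E2F factors were read from lists of their partners, controllers and targets. The counts of each list stand beside 41.1% lower and 43.5% higher among all genes tested. The lists were chosen with earlier results of these data known, so their counts are descriptions. Both DP partner genes tested were called lower. TFDP2, a DP subunit, went from 58.7 ± 7.63 to 32.3 ± 3.07 CPM (SD, n = 3 each), with a log2 fold change of −0.86 (edgeR adjusted p = 3.7e-09). TFDP1, the main DP subunit, was at 139 ± 5.25 and 113 ± 11.2 CPM, with −0.30 (edgeR adjusted p = 0.000693), a call lost with upper quartile factors at −0.10 (edgeR adjusted p = 0.210). TFDP3 had 0 counts in every library, which allows up to 0.246 to 0.253 CPM after DMSO and 0.394 to 0.415 CPM after THZ1.

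Of the MuvB core, MYBL2 and FOXM1, which form the DREAM complex with E2F4 and pocket proteins or drive late cell-cycle genes, 5 of 7 fell and 2 rose, with a median log2 fold change of −0.54. RBBP4, a histone-binding subunit, had the lowest at −0.77, and MYBL2, an E2F target that takes over the MuvB core in S phase, fell by 0.76. LIN37, a MuvB subunit, had the highest at 2.29, from a low level of 1.28 ± 0.400 CPM to 6.27 ± 0.402 CPM (SD, n = 3 each), and LIN9, another MuvB subunit, rose by 0.52.

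The kinases and cyclins that phosphorylate pocket proteins mostly fell, whereas their inhibitors mostly rose. Of 7 kinase and cyclin genes tested, 5 fell, 1 rose and 1 was not called, and the median of the log2 fold changes was −1.53. Of the 5, 4 were lower by at least 1.5 on the log2 scale, a size reached by 12.9% of all genes tested. CCND3, cyclin D3, fell from 571 ± 43.6 to 131 ± 5.51 CPM (SD, n = 3 each), and its kinases CDK4 and CDK6 fell by 1.56 and 1.53 on the log2 scale. CCND2, cyclin D2, rose by 1.80 from 1.52 CPM, but turned to −0.14 with limma on the deposited FPKM (pseudocount 1, adjusted p = 0.547), and CCNE1, cyclin E1, was at 0.15 (edgeR adjusted p = 0.335) and called higher with upper quartile factors, at 0.34, while CCNE2, cyclin E2, fell by 1.98.

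Of the 5 inhibitor genes tested, 4 rose and none fell, with a median of 2.04. CDKN1A, which blocks CDK2 complexes and is a p53 target, rose from 120.2 ± 3.38 to 1056 ± 27.6 CPM (SD, n = 3 each), a log2 fold change of 3.14 (edgeR adjusted p = 7.3e-27), and CDKN1C, of the same family, rose by 1.46. CDKN2C, an inhibitor of CDK4 and CDK6, was not called, at 0.07 (edgeR adjusted p = 0.393), and depended on the scaling, since it was called higher with upper quartile factors, at 0.27, and lower with library totals alone, at −0.17. CDKN2A and CDKN2B, of the same kind, had 0 counts in all 6 libraries. Protein or phosphorylation was not measured in these libraries.

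The partners of E2F6 in the Polycomb complex PRC1.6 mostly fell, with 6 of 8 lower, 2 higher and a median of −0.83. MGA, its DNA-binding scaffold, was at 46.8 ± 6.52 and 20.7 ± 2.64 CPM (SD, n = 3 each), a log2 fold change of −1.17 (edgeR adjusted p = 7.0e-11). YAF2 and RYBP, which are related subunits, rose by 0.64 and 0.56, but YAF2 turned to −0.11 with limma on the deposited FPKM (pseudocount 1, adjusted p = 0.351).

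**Figure D4:**
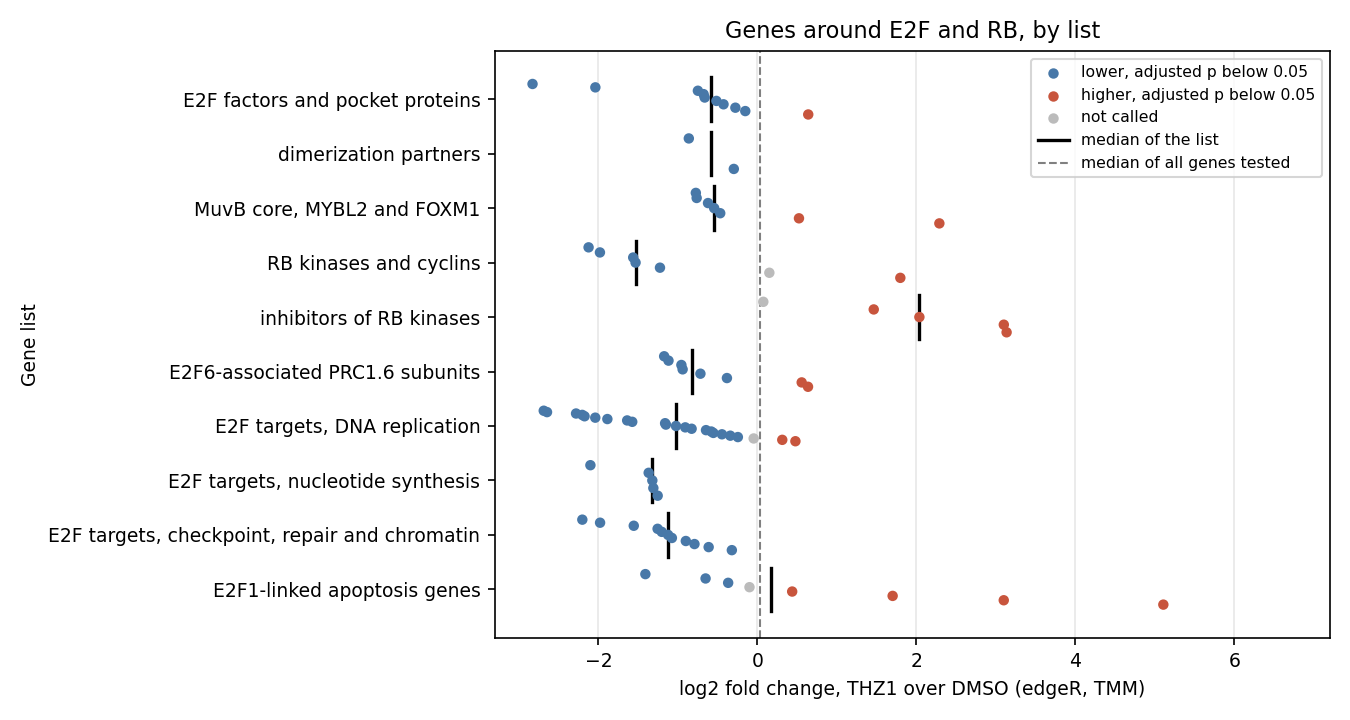
Log2 fold change (THZ1 over DMSO, horizontal axis) of each tested gene in each list (vertical axis), colored by its call, with a bar at the median of the list and a dashed line at the median of all genes tested, 0.03. The E2F target lists lie mostly to the left with medians of −1.02, −1.32 and −1.12, the inhibitors of RB kinases lie to the right with a median of 2.04, and E2F4, the blue dot nearest to 0 in the top line, turns positive with upper quartile factors.

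Listed target genes of the E2F activators were mostly lower after THZ1. The target lists too were chosen with earlier results known, so their counts are no independent support. Over 3 target lists, 36 of the 39 genes tested fell, 2 rose and 1 was not called, against 41.1% lower and 43.5% higher of all genes. The median of their log2 fold changes was −1.16. Of the 36, 13 were lower by at least 1.5 on the log2 scale, against 12.9% of all genes tested. The number lower was 34 with upper quartile factors and with at least 10 counts in every library, where CDC25A and SUV39H1 lost their calls. Among 23 DNA replication genes, 20 fell, with POLA2, a subunit of the primase complex, the lowest at −2.69 (98.5 ± 3.93 to 15.3 ± 0.969 CPM, SD, n = 3 each). The exceptions were MCM2, a subunit of the replicative helicase, which rose from 402 ± 3.73 to 560.4 ± 12.5 CPM (log2 fold change 0.48), CDT1, a licensing factor that loads the helicase, which rose by 0.31, and ORC1, of the origin recognition complex, at −0.05 (edgeR adjusted p = 0.586). CDT1 was no longer called with library totals alone, at 0.07 (edgeR adjusted p = 0.365), nor on the deposited FPKM, while MCM2 lost its call only with limma on FPKM at a pseudocount of 0.1, at 0.18 (adjusted p = 0.0537). ORC1 was called lower with library totals alone, at −0.30.

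All 5 nucleotide synthesis genes fell. RRM2, the inducible subunit of ribonucleotide reductase, went from 317 ± 1.87 to 73.9 ± 5.37 CPM (SD, n = 3 each), a log2 fold change of −2.10. TYMS, thymidylate synthase, changed the least of the list, at −1.25. All 11 checkpoint, repair and chromatin genes tested fell too, from −2.20 for BRCA1, a repair factor, to −0.32 for SUV39H1, a histone methyltransferase, whose call was lost with upper quartile factors at −0.13 (edgeR adjusted p = 0.215). UHRF1, also listed, was not found by that name in the count table.

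Of 8 apoptosis genes linked to E2F1, 3 fell, 4 rose and 1 was not called, close to the 41.1% lower and 43.5% higher of all genes tested, with a median of 0.17, which turned to −0.08 with library totals alone. BBC3, which encodes the death inducer PUMA and is also a p53 target, rose from 4.04 ± 0.335 to 139.6 ± 2.99 CPM (SD, n = 3 each), a log2 fold change of 5.11 (edgeR adjusted p = 1.2e-27). TP73, a p53 relative and a classic E2F1 target, was at 0.748 ± 0.175 and 6.50 ± 0.658 CPM, a log2 fold change of 3.10 (edgeR adjusted p = 4.5e-11). Both rose in the libraries in which E2F1 was lower. CASP8AP2, a factor in death receptor signalling and histone gene expression, fell by 1.41. The BIM gene BCL2L11 was at −0.10 (edgeR adjusted p = 0.305), and was called lower with library totals alone, at −0.35.

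The genes whose levels over the 6 libraries were most like those of a member were sought among 8971 protein-coding genes with a mean of at least 10 CPM, by the Euclidean distance of gene-centred log2 CPM. For E2F1 they were KHK at a distance of 0.0857, TRIM59 at 0.125 and MYC at 0.144, with log2 fold changes of −2.92, −2.86 and −2.89. For E2F2 they were UBTF at 0.0413, CHD3 at 0.0562 and POLG2 at 0.0645, with 0.65, 0.63 and 0.61. For RB1 they were GPR155, AGAP1 and ACADSB at 0.148 to 0.159, with −2.06, −2.00 and −2.00. With 6 libraries in a pair of treatments, this distance mostly reflects a fold change of the same size.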

How the data were processed

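RNA-SEQ libraries of NALM6 cells, 3 treated with DMSO and 3 with 500 nM THZ1 for 24 h, were grouped by their labels. The authors deposited raw counts per gene (cutadapt, STAR to GRCh37, HTSeq, per the labels and methods). Annotation and strand setting are not given in the sources used here. A second deposited table holds log2 values by the authors, whose methods name FPKM from RSEM. They were read as log2(FPKM + 1). Libraries of a treatment share nearly the same distribution there, by a step not given in the sources used here. The p-values and log2 fold changes of the authors in that deposited table were not used.

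Genes passing filterByExpr (minimum count 10, minimum total 15) were scaled by TMM and tested two-sided by the quasi-likelihood test of edgeR, with p-values of the 16622 genes adjusted by the Benjamini-Hochberg method and a threshold of 0.05. This test gives no SE, so the SE of edgeR values is the absolute log2 fold change over the square root of the F statistic. Tried as alternatives were RLE factors, upper quartile factors, library totals alone, DESeq2, 2 other count filters, a replicate block, each library left out, and limma on FPKM (pseudocounts 1 and 0.1, or a mean of at least 1). No library counted as a copy of another (chi-square per gene between replicates 1.78 to 9.19). Over the genes tested as a whole, replicate numbers did not pair the libraries (correlations of deviations −0.00400 to 0.0206). Fits were tested on simulated data in which few genes changed, as many up as down. Most genes tested were called in the real data, so the simulation does not check the scaling. Floors cover counting error only.

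The members and lists were chosen with earlier results of these data known. All members were named, and per list the called genes with the highest and lowest fold change and up to 3 against the majority, and per likeness search 3 genes. CDK4, CDK6, CCNE2, MYBL2 and TP73, and the genes named as not called or not detected, were named after their values were seen. A few items are not reported here. Positions are from GENCODE on GRCh37, promoters from RefSeq.

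The software was Python 3.11.15 (matplotlib 3.10.9, pandas 2.3.3, scipy 1.17.1, numpy 2.4.6) and R 4.3.3 (DESeq2 1.42.0, limma 3.58.1, edgeR 4.0.16).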

Additional observations from a re-analysis of the deposited data

How the results depend on the processing

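Of 160 values (10 members under 16 alternatives), 148 kept their direction and their call, among them all values of E2F1, E2F2, RB1, RBL1, E2F5, E2F6, E2F7 and E2F8. The other 12 were of E2F3 and E2F4. The share of all genes tested that kept their call was not computed. In the main fit 41.1% of them were called lower and 43.5% higher. Many of the alternatives differ only in scaling or in 1 library, so the 160 values are not independent checks. E2F3 lost its call with upper quartile factors and with at least 10 counts in every library. E2F4 reversed to 0.041 with upper quartile factors and ranged from −0.21 to −0.11 with 1 library left out. Its call was also lost with DESeq2 (−0.08, adjusted p = 0.320), with at least 10 counts in every library (−0.02, edgeR adjusted p = 0.801) and with a replicate block (−0.15, edgeR adjusted p = 0.0520), which left 8 members lower and changed no other member's call. The cause was not tested.

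The number of E2F target genes called higher was 2, but 1 with library totals alone, 1 with limma on FPKM with a pseudocount of 1, 0 with a pseudocount of 0.1 and 1 with a mean FPKM of at least 1. The share of E2F2 after THZ1 was 50.6% when CPM per kilobase of exon replaced the deposited FPKM. The levels of the members were well above the floor of 3 counts, so depth limits mainly the low genes LIN37, CCND2, CDKN1C and TP73.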
